A study of Homo sapiens with 9 samples.

Results

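The integrins and laminins were the 38 genes, of 27673 in the count table, whose symbols name an integrin alpha chain (18 genes), an integrin beta chain (8 genes), or a laminin alpha, beta or gamma chain (5, 4 and 3 genes). A symbol alone decided which genes were members, and the gene families were picked with earlier results of these data known. RNA sequencing had measured them in A498, a cell line established from a clear cell renal cell carcinoma (ccRCC) of the human kidney. The study asked how depletion of BMAL1 (a circadian clock transcription factor) compares with depletion of ARNT (with which HIF1α and HIF2α, the hypoxia-inducible factors, pair). The 9 libraries formed 3 groups of 3 biological replicates. All cells carried a lentiviral pLKO.1 vector and had been selected and kept in puromycin. Controls (shControl) expressed a control hairpin, shBMAL1 cells a hairpin against BMAL1 and shARNT cells a hairpin against ARNT. Each gene was targeted under 1 hairpin name, so an effect of the depleted gene and an effect of its hairpin cannot be told apart. No separate cultures were described beyond the replicate labels, so the p-values measure the spread between these libraries.

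Integrins are receptors made of 1 alpha and 1 beta chain that span the cell membrane and join the extracellular matrix to the actin or keratin cytoskeleton. The alpha chain largely sets which ligand is bound, and the beta chain carries the tail to which talin and kindlin attach. Laminins are secreted cross-shaped trimers of an alpha, a beta and a gamma chain, and they are main constituents of the basement membrane on which kidney tubule cells rest. Integrins α3β1, α6β1, α7β1 and α6β4 are the classical laminin receptors, so the gene families stand on opposite sides of the same contact.

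Library totals lay between 35269870 and 36099096 counts. Levels are given as CPM, in which a count is set against the size of its library after scaling by trimmed means of M values (TMM). With library size alone as the scale, the median over all genes moved up by 0.24 on the log2 scale in shARNT against shControl, by 0.05 in shBMAL1 against shControl and by 0.19 in shARNT against shBMAL1, and the changes below are relative to the TMM scale. The share of calls that were higher in shARNT than in shControl was 49.6% on that scale and 60.5% with library size alone. ARNT was at 18.8% of its control level in shARNT, and BMAL1, listed as ARNTL, was at 30.9% in shBMAL1. ARNT was also called lower in shBMAL1, at 63.9% of control, and ARNTL higher in shARNT, at 146%. EPAS1 (HIF2α) was at 21.5% in shARNT and 67.5% in shBMAL1, and HIF1A at 279% and 301%. Of 10 genes listed for the identity of the line, all 10 were measured above the filter on low counts, among them the kidney transcription factors PAX8 and PAX2, although the epithelial marker EPCAM was at 0.413 CPM in shControl. CA9, which is induced by hypoxia-inducible factors, fell by 6.17 in shARNT and by 1.34 in shBMAL1 as log2 values, VIM (vimentin) fell by 2.88 in shARNT, and the keratin gene KRT19 rose by 0.97 in shBMAL1. In this list 1 gene rose and 8 fell in shARNT, and 2 rose and 7 fell in shBMAL1. Among all genes 40.5% were called higher and 41.3% lower in shARNT, and 31.9% and 31.5% in shBMAL1. No difference from these shares was tested.

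In shARNT most integrin and laminin chains fell, whereas in shBMAL1 the integrin chains split between rises and falls and 6 of the 12 laminin chains were not called. Of the 38 genes, 35 passed the filter on low counts. The exceptions were ITGA8 (0 counts in every library), ITGA9 (at most 9 counts) and ITGAL (at most 21 counts). ITGA9 had 9, 4 and 6 counts in shControl, 5, 7 and 8 in shBMAL1, and 1, 0 and 1 in shARNT. ITGAL had 5, 2 and 3 counts in shControl, 21, 9 and 15 in shBMAL1, and 6, 1 and 2 in shARNT. The groups were apart for ITGA9 in shARNT (lower) and for ITGAL in shBMAL1 (higher), with no test at these counts. In shARNT against shControl, 24 chains were called lower, 6 higher and 5 neither, at an adjusted p under 0.1 in the quasi-likelihood test of edgeR, with p-values adjusted over all genes tested after Benjamini and Hochberg, as for every call below. Differences given in brackets with an adjusted p are log2 fold changes against shControl. That contrast called 81.8% of all genes, 40.5% higher and 41.3% lower, so the number called was near the background. The split by direction was less even than among all genes, which is a description and was not tested. The 23 tested integrin chains had 14 lower, 5 higher and 4 neither, with a median log2 fold change of -0.87, and the 12 laminin chains had 10 lower, 1 higher and 1 neither, with a median of -0.79. Falls of at least 2-fold were made by 10 integrin and 5 laminin chains, against 19.2% of all genes. The libraries of the groups did not overlap in CPM for 25 chains that were lower and 6 that were higher, as for 79.8% of all genes.

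In shBMAL1 against shControl, 12 chains were called higher, 11 lower and 12 neither, where 63.3% of all genes were called, 31.9% higher and 31.5% lower. Among the integrin chains 10 rose, 7 fell and 6 were not called, with a median log2 fold change of 0.05. Among the laminin chains 2 rose, 4 fell and 6 were not called, with a median of -0.01. Rises of at least 2-fold were made by 7 integrin chains and by 0 laminin chains, and 4.73% of all genes rose this far. Falls of this size were made by 3 integrin and 0 laminin chains, against 5.5% of all genes. The libraries did not overlap for 15 chains that were higher and 10 that were lower, beside 62.2% of all genes. A test against a minimum fold change of 1.5 would end the calls of ITGA2, ITGAE, ITGB7, LAMA1, LAMA2, LAMA4 and LAMC1 in shARNT. In shBMAL1 it would end those of ITGA1, ITGA4, ITGA7, ITGAE, ITGAM, ITGB1, ITGB6, ITGB7, LAMA2, LAMA4, LAMB1, LAMB2 and LAMC3. Both contrasts use the same control libraries, so their values are set side by side and no overlap between them is read as a result. Samples were bulk RNA, in which fewer cells of a type and less RNA per cell cannot be told apart.

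Summed over all chains, the integrin level was 5416, 5215 and 5311 CPM in shControl, 8661, 8438 and 8664 CPM in shBMAL1, and 2833, 2971 and 3077 CPM in shARNT. The 3 groups did not overlap, and the means stood at 162% of control in shBMAL1 and 55.7% in shARNT. Laminin chains summed to 4320, 4176 and 4271 CPM in shControl, 3995, 3892 and 4175 CPM in shBMAL1, and 2061, 2111 and 2247 CPM in shARNT. Here the highest shBMAL1 library lay within 1 CPM of the lowest shControl library (94.5% of control on average), while every shARNT library was far below (50.3%).

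**Figure D1:**
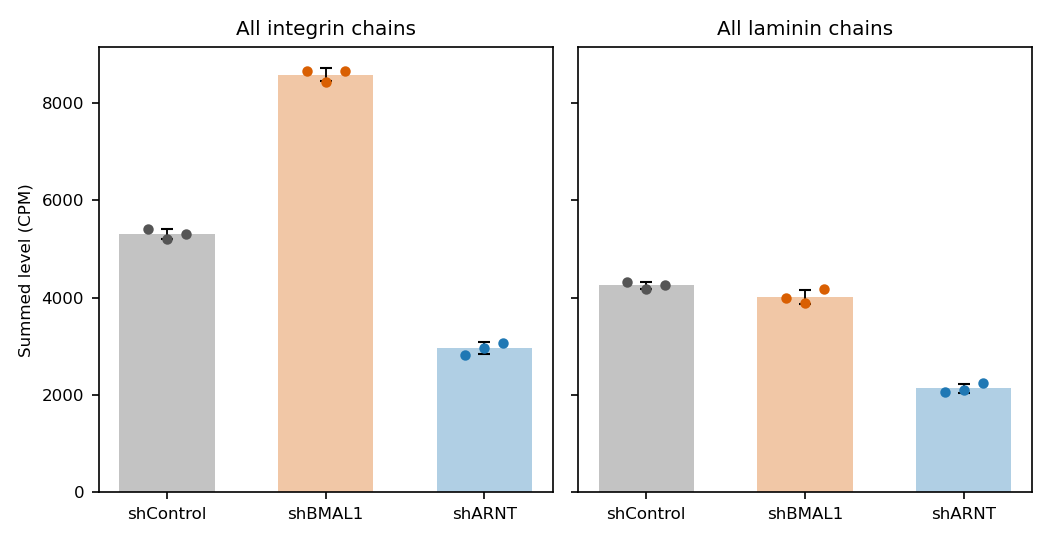
Summed level of all integrin chains (left) and all laminin chains (right) in CPM, with 1 point per library, bars at the mean and error bars of 1 SD over 3 libraries. Integrin chains stood at 162% of control in shBMAL1 and 55.7% in shARNT, and laminin chains at 94.5% and 50.3%.

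By role, the alpha chains of integrins summed to 173% of control in shBMAL1 and 48.2% in shARNT, and the beta chains to 145% and 66.5%. Laminin alpha chains were at 109% and 62.1%, beta chains at 84.2% and 36.4%, and gamma chains at 98.0% and 76.4%. A few abundant chains carry these sums, so each chain is described in turn.

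**Figure D2:**
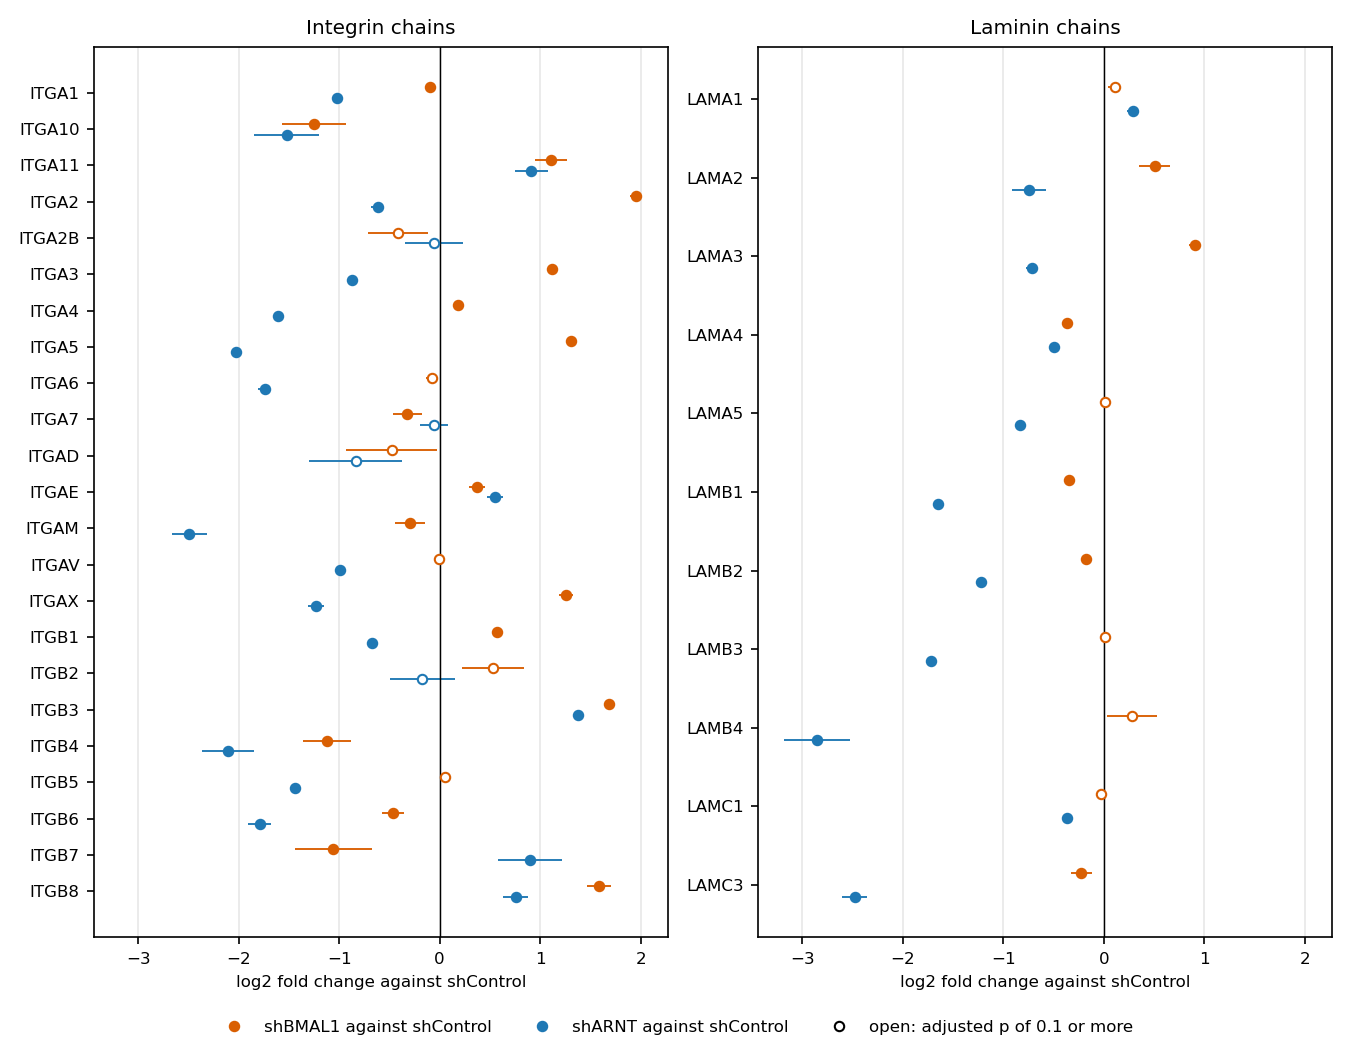
Log2 fold change against shControl (horizontal axis) of the tested integrin chains (left) and laminin chains (right) reported in shBMAL1 (orange) and shARNT (blue), with error bars of 1 SE from the edgeR fit. Open points had an adjusted p of 0.1 or more, as for ITGAV at -0.01 in shBMAL1, while the orange point of ITGA2 lies at 1.95.

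Levels of different chains were compared per kilobase of annotated exon. The most abundant alpha chain in shControl was ITGA3, at 134 CPM per kilobase, followed by ITGA5 (54.5 ± 1.5, SD, n = 3) and ITGAV (51.4 ± 1.6), which were close to each other and changed places when the longest transcript was the length (16.0% of the alpha class for ITGA5 and 24.7% for ITGAV). ITGB1 (101 CPM per kilobase) and ITGB5 (86.8) led the beta chains, before ITGB3 (17.2). Among laminins, LAMA5 (71.9), LAMB2 (139) and LAMC1 (64.7) were the most abundant chain of each class. In all, 15 chains reached 10 CPM per kilobase in shControl. Between LAMB2 and LAMB1 (62.6) the order depended on the length used, since with the longest transcript in place of all exons LAMB1 held 46.1% of the beta class and LAMB2 44.9%.

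**Figure D3:**
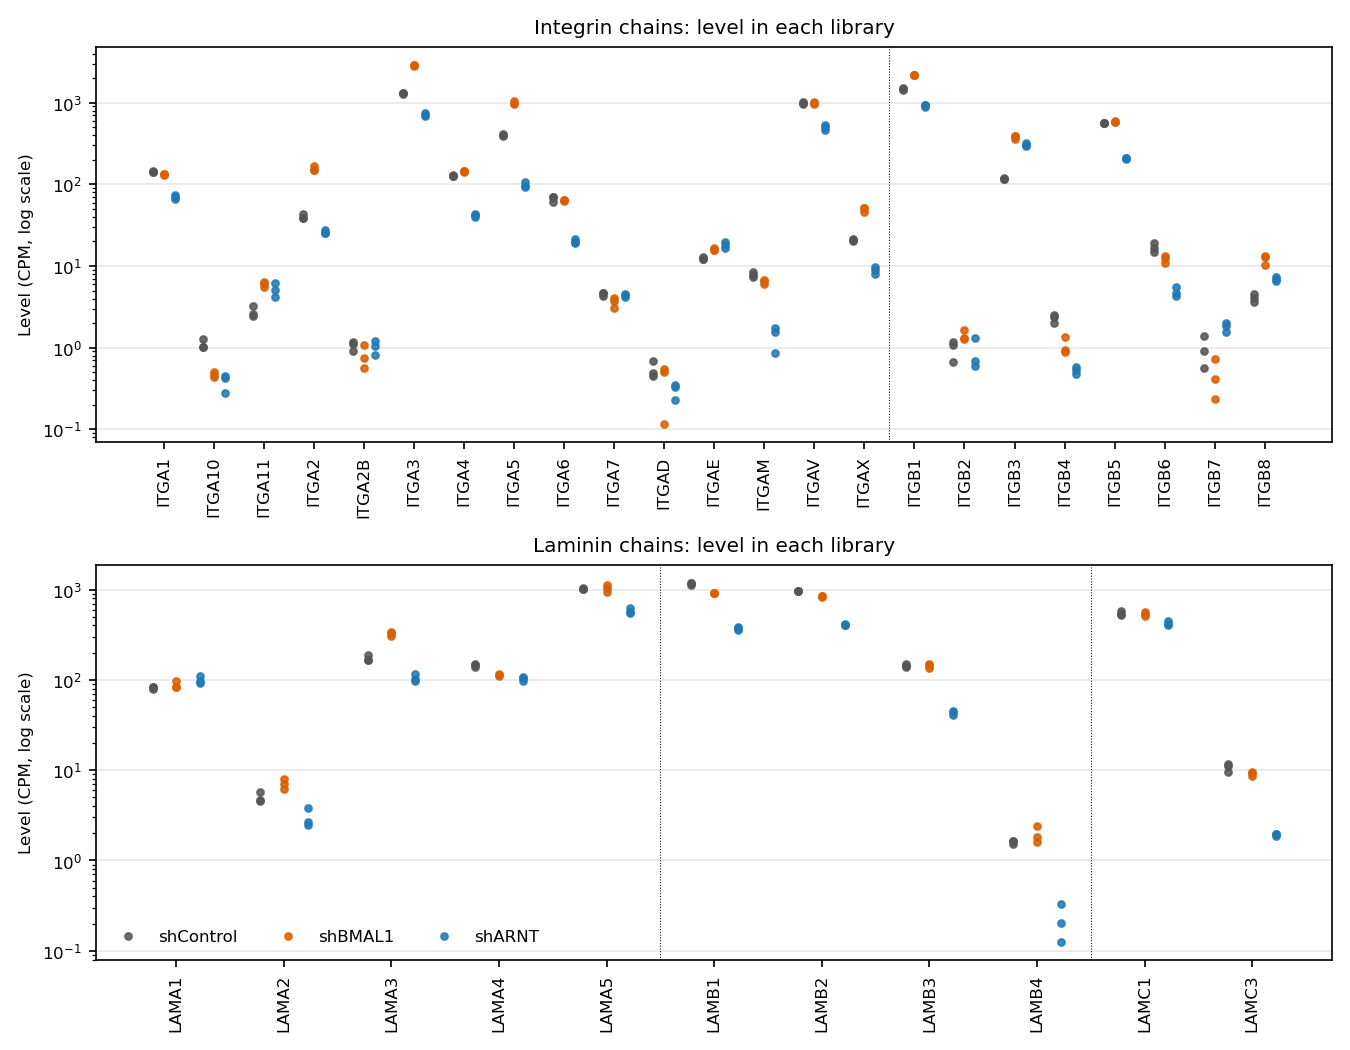
Level of the tested chains reported, in every library in CPM, on a log axis, with integrin chains above (dotted line between alpha and beta chains) and laminin chains below (dotted lines between alpha, beta and gamma chains). For ITGA5 the shBMAL1 points lie at 959.9 to 1042 CPM, the shControl points at 391 to 412 and the shARNT points at 94.1 to 105.

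The promoters of the chains were examined for the letters that these factors are known to bind, because the depleted proteins are sequence-specific. BMAL1 with CLOCK binds the E-box CACGTG, and hypoxia-inducible factors with ARNT bind ACGTG or GCGTG. The study also reported that overexpressed BMAL1 enhanced activation by HIF2α of a reporter under a hypoxia response element, which holds ACGTG or GCGTG. That assay was made in a different line of kidney cells. Matches of either pattern may thus concern BMAL1. Promoter sequence, from 250 bases before to 50 bases after a gene start, was taken from RefSeq (GRCh38.p14) for 26 of the 38 members, which gave 33 promoters. Both strands were searched, and every CACGTG also counts as a match of ACGTG. The pattern ACGTG or GCGTG was found in 12 of 22 integrin promoters (54.5%), 2 of 11 laminin promoters (18.2%) and 48.4% of 35116 promoters of all genes. Some genes, among them ITGA6, ITGB5 and LAMB3, had more than 1 promoter, and those of ITGA6 and of LAMB3 partly overlapped. Each promoter was counted, and shares by gene were not taken. CACGTG was found in 1 integrin promoter, that of ITGA6, in 0 laminin promoters and in 7.26% of all promoters. Windows of 30 bases are shown for ITGA6 as the single E-box match, for ITGA5 and ITGA2 as chains that moved in opposite directions in the depletions, for ITGB8 as a chain that rose in both, and for LAMC1 as 1 of the 2 laminin matches. Each is read 5′ to 3′ on the strand of its gene, with the matching letters in capitals.
ITGA6, chr2:172427223-172427252, plus strand: cgtatgcatctgCACGTGggcccacatctg
ITGA5, chr12:54419379-54419408, minus strand: gcgcccccccccCACGCcccttaggggtgg
ITGA2, chr5:52989172-52989201, plus strand: gtgcggtgccccGCGTGtggacgagccgag
ITGB8, chr7:20330742-20330771, plus strand: ggcgctccggtaGCGTGgggaggtttccta
LAMC1, chr1:183023417-183023446, plus strand: cgcgcactcgggCACGCgctcggaagtcgg
The match shown begins at position -101 relative to the gene start in ITGA6, -130 in ITGA5, -168 in ITGA2, -146 in ITGB8 and 9 in LAMC1. ITGB8 had 2 matches, and the one nearer the gene start is shown. ITGA6 also had a match of ACGTG or GCGTG outside the E-box. CACGC is GCGTG read on the other strand. The windows were picked from chains with a match. Among other chains that moved in opposite directions, ITGA4, ITGB7 and LAMA2 also had a match, and ITGB1 and LAMA3 had none. ITGA3 and ITGAX had no promoter in this set. Of the others that rose in both, ITGA11 had a match, ITGAE had none and ITGB3 had no promoter here. All matches describe the letters only, and binding was not measured here. The study measured binding of BMAL1 and HIF2α to chromatin in A498 cells, and those data were not used.

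Among the laminin-binding integrins, ITGA3 encodes the α3 chain that pairs with β1 and binds laminins with an α3 or α5 chain (chromosome 17, 48133332 to 48167845, GRCh37). Its level was 1331, 1295 and 1308 CPM in shControl, 2900.0, 2801 and 2862 CPM in shBMAL1, and 688, 710.1 and 747 CPM in shARNT. The groups did not overlap, with shBMAL1 highest and shARNT lowest. On the log2 scale ITGA3 changed by 1.12 (SE 0.0347, adjusted p = 1.09e-15) in shBMAL1 and -0.87 (SE 0.0347, adjusted p = 4.85e-15) in shARNT.

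ITGA6 encodes the α6 chain, which pairs with β1 or β4, and its promoter holds the E-box shown above. Control libraries had 69.8, 70.5 and 61.2 CPM, shBMAL1 libraries 61.8, 64.7 and 65.1 CPM, and shARNT libraries 19.2, 21.2 and 19.9 CPM. ITGA6 was thus low in every shARNT library, whereas shBMAL1 and shControl overlapped. Its fall in shARNT was -1.74 as a log2 value (adjusted p = 1.06e-15). In shBMAL1 the difference was -0.07, with a 95% interval from -0.20 to 0.05 (adjusted p = 0.3), and it was called when shControl replicate 3 was left out (adjusted p = 0.0541).

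ITGB4, the long-tailed beta chain that anchors hemidesmosomes to keratin, was scarce. It had 2.40, 2.00 and 2.48 CPM in shControl, 0.877, 1.34 and 0.941 CPM in shBMAL1, and 0.530, 0.480 and 0.579 CPM in shARNT. No 2 groups overlapped, and the log2 fold changes were -1.12 in shBMAL1 (adjusted p = 0.000413) and -2.11 in shARNT (adjusted p = 2.41e-07). ITGA7, the α7 chain known from muscle, averaged 4.54 CPM in shControl, 3.63 CPM in shBMAL1 and 4.38 CPM in shARNT. The fall in shBMAL1 (-0.32, adjusted p = 0.0585) was lost with library size alone and without shControl replicate 1, shControl replicate 2 or shBMAL1 replicate 3.

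ITGB1, the β1 chain shared by most matrix-binding integrins (chromosome 10, 33176201 to 33294720), followed the order of ITGA3 with smaller steps. It had 1507, 1437 and 1463 CPM in shControl, 2204, 2164 and 2157 CPM in shBMAL1, and 886, 935 and 942 CPM in shARNT. Groups were again apart, and ITGB1 changed on the log2 scale by 0.57 (SE 0.0337, adjusted p = 1.87e-11) in shBMAL1 and -0.67 (SE 0.0338, adjusted p = 2.17e-13) in shARNT.

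Of the chains that recognise the RGD motif of fibronectin and vitronectin, ITGA5 had the widest separation between the depletions. It encodes α5, which pairs with β1 as the main fibronectin receptor (chromosome 12, 54789045 to 54813050). Its level was 405, 391 and 412 CPM in shControl, 998, 959.9 and 1042 CPM in shBMAL1, and 94.1, 96.5 and 105 CPM in shARNT. Every shBMAL1 library lay above every control and every shARNT library below. On the log2 scale ITGA5 changed by 1.31 (SE 0.0434, adjusted p = 2.75e-15) in shBMAL1 and -2.03 (SE 0.0454, adjusted p = 4.75e-19) in shARNT. Tested directly, shARNT was 10.1-fold below shBMAL1 (log2 fold change -3.34, adjusted p = 4.75e-22), which was the largest difference of any integrin or laminin chain in that contrast. The 95% interval of LAMB4 there, from -3.80 to -2.46, held the ITGA5 value.

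ITGAV, the αV chain that pairs with β1, β3, β5, β6 or β8, had 1027, 968 and 985 CPM in shControl, 993, 962 and 1008 CPM in shBMAL1, and 465, 503 and 529 CPM in shARNT. The shBMAL1 and shControl libraries overlapped, and shARNT was near 50.2% of control. The shBMAL1 difference was -0.01 on the log2 scale (95% interval -0.10 to 0.08), and library size alone turned its sign (0.0381). In shARNT ITGAV fell by 0.99 (adjusted p = 1.57e-14).

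Its beta partners moved apart. ITGB3, the β3 chain of the vitronectin receptor (chromosome 17, 45331193 to 45391109), had 116, 116 and 121 CPM in shControl, 387, 359 and 386 CPM in shBMAL1, and 293, 301 and 321 CPM in shARNT. All libraries of both depletions were above all controls. On the log2 scale ITGB3 rose by 1.68 (SE 0.0439, adjusted p = 8.36e-17) in shBMAL1 and 1.37 (SE 0.0436, adjusted p = 1.29e-16) in shARNT, where 12.4% of all genes rose at least 2-fold and ITGB3 was the single chain that did. Of its exon bases, 33.2% are shared with a readthrough gene annotated on the same strand, and reads of these bases could not be assigned to either.

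ITGB5, the β5 chain that also binds vitronectin with αV, had 568, 557 and 571 CPM in shControl, 574, 582 and 599 CPM in shBMAL1, and 204, 210.0 and 211 CPM in shARNT. As a log2 value it fell by 1.44 in shARNT (SE 0.0352, adjusted p = 1.82e-18), against a rise of ITGB3 in those cells. In shBMAL1 the libraries lay just above control, but the difference of 0.05 was not called (95% interval -0.02 to 0.12), except with library size alone (0.10, adjusted p = 0.0199).

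ITGB6, whose product with αV activates latent TGFβ in epithelia, fell in both depletions. It had 14.9, 16.7 and 19.1 CPM in shControl, 13.5, 12.4 and 11.1 CPM in shBMAL1, and 4.34, 4.70 and 5.62 CPM in shARNT, so the groups stood in that order without overlap. The log2 fold changes were -0.46 (adjusted p = 0.00115) and -1.79 (adjusted p = 1.79e-11). Of ITGB6 exon bases, 16.7% are shared with a noncoding gene annotated on the same strand, and reads of these bases could not be assigned to either. ITGB8, the other TGFβ-activating partner of αV, rose instead, with 4.54, 3.68 and 4.03 CPM in shControl against 13.0, 13.3 and 10.4 CPM in shBMAL1 and 6.89, 6.5 and 7.31 CPM in shARNT. Both depletions lay above control, by 1.59 in shBMAL1 (adjusted p = 1.03e-09) and 0.76 in shARNT (adjusted p = 1.75e-05) on the log2 scale.

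Collagen-binding alpha chains, which all pair with β1, showed every direction. ITGA2, the collagen receptor chain also known from platelets and epithelia (chromosome 5, 52285170 to 52390609), had 43.2, 38.6 and 38.5 CPM in shControl, 152, 149 and 166 CPM in shBMAL1, and 25.2, 25.6 and 27.7 CPM in shARNT. The 3 groups were apart, and the rise in shBMAL1 was the largest of any tested chain (log2 fold change 1.95, SE 0.0582, adjusted p = 6.65e-16). In shARNT ITGA2 changed by -0.62 (SE 0.0615, adjusted p = 1.35e-08).

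ITGA1, the α1 chain that prefers basement membrane collagen, had 145, 141 and 143 CPM in shControl, 136, 135 and 129 CPM in shBMAL1, and 66.3, 71.0 and 74.0 CPM in shARNT. The shARNT difference of -1.02 (adjusted p = 3.62e-14) stood well outside the spread. That of -0.10 in shBMAL1 (adjusted p = 0.0619) was lost with library size alone and when shControl replicate 1, shControl replicate 3 or shBMAL1 replicate 3 was left out. ITGA11, a fibrillar collagen receptor chain known from fibroblasts, rose in both depletions from 2.76 CPM on average to 5.96 CPM in shBMAL1 (1.11, adjusted p = 6.8e-06) and 5.20 CPM in shARNT (0.91, adjusted p = 3.54e-05). ITGA10, known from cartilage, fell in both from 1.12 CPM to 0.468 CPM (-1.25, adjusted p = 0.00229) and 0.387 CPM (-1.52, adjusted p = 0.00024).

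ITGA4, the α4 chain that binds VCAM1 and fibronectin, had 128, 125 and 129.5 CPM in shControl, 143, 145 and 146 CPM in shBMAL1, and 39.6, 42.3 and 43.3 CPM in shARNT. It rose slightly in shBMAL1 (0.18, adjusted p = 0.00105) and fell in shARNT (-1.61, adjusted p = 1.84e-17), with no overlap between groups. Of its exon bases, 26.4% lie opposite exons of CERKL, whose log2 fold changes were 0.26 in shBMAL1 and -1.69 in shARNT. Because the use of strand in counting was not stated, reads of ITGA4 and CERKL cannot be told apart where they overlap.

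Several chains of leukocyte integrins were detected in these carcinoma cells. ITGAX (CD11c) had 20.01, 20.9 and 21.4 CPM in shControl, 51.0, 51.6 and 46.1 CPM in shBMAL1, and 9.80, 8.85 and 7.94 CPM in shARNT. Like ITGA5 it rose in shBMAL1 (1.25, adjusted p = 9.55e-12) and fell in shARNT (-1.23, adjusted p = 1.69e-11), with the groups apart. ITGAM (CD11b) averaged 7.87 CPM in shControl, 6.42 CPM in shBMAL1 and 1.40 CPM in shARNT. As a log2 value it fell by 2.49 in shARNT (adjusted p = 5.66e-11). Its difference of -0.29 in shBMAL1 (adjusted p = 0.0993) was only just called, and it was lost under 10 of 18 alternatives.

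ITGB2, the beta chain with which CD11b and CD11c pair, was at 0.977 CPM in shControl, 1.41 CPM in shBMAL1 and 0.867 CPM in shARNT, and was not called against control in either depletion. The 9 leukocyte markers examined summed to between 0.614 and 1.49 CPM per library, and CD3E and MS4A1 had 0 counts throughout. PTPRC (CD45), the marker of all leukocytes, averaged 0.232 CPM in shControl, 0.137 CPM in shBMAL1 and 0 in shARNT. CD14, the single leukocyte marker that passed the filter, went the other way, from 0.191 CPM in shControl and 0.253 CPM in shBMAL1 to 0.698 CPM in shARNT (1.85, adjusted p = 0.00466), and NKG7, which did not pass, averaged 0.0706 CPM in shControl, 0.165 CPM in shBMAL1 and 0.32 CPM in shARNT. The part of leukocyte RNA in these levels was not tested. ITGAE (CD103), which binds E-cadherin, averaged 12.4 CPM in shControl and rose to 16.1 CPM in shBMAL1 (0.37, adjusted p = 0.000511) and 18.2 CPM in shARNT (0.56, adjusted p = 2.4e-06).

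ITGB7, the partner of ITGAE and ITGA4 in lymphocytes, had 0.571, 0.911 and 1.39 CPM in shControl, 0.409, 0.726 and 0.235 CPM in shBMAL1, and 1.54, 1.82 and 2.02 CPM in shARNT. The shARNT libraries were above control (0.90, adjusted p = 0.0144), and shBMAL1 overlapped it although it was called lower (-1.06, adjusted p = 0.0232). That call was lost without shControl replicate 3 or shBMAL1 replicate 3. Exons of ZNF740 on the opposite strand cover 42.3% of ITGB7 exon bases, and ZNF740 rose by 0.82 in shARNT and 0.21 in shBMAL1 on the log2 scale, so the ITGB7 values are uncertain. ITGA2B, the platelet fibrinogen receptor chain (1.07 CPM in shControl), and ITGAD (0.544 CPM) were not called in either depletion. Every shARNT library of ITGAD lay below every control (-0.84, adjusted p = 0.102). It was called lower there in a fit of only the 6 libraries compared and without shBMAL1 replicate 1.

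Laminin alpha chains carry the globular domains to which integrins bind. LAMA5, the main alpha chain of kidney tubule basement membrane, had 1024, 1007 and 1051 CPM in shControl, 1040.3, 943 and 1119 CPM in shBMAL1, and 553, 560.1 and 619 CPM in shARNT. The shBMAL1 libraries spread around the controls, with a difference of 0.01 on the log2 scale and a 95% interval from -0.10 to 0.12. That sign was lost without shControl replicate 2 or shBMAL1 replicate 3. In shARNT LAMA5 fell by 0.83 (SE 0.0515, adjusted p = 6.85e-12).

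LAMA3, the alpha chain of laminin 332 that α3β1 and α6β4 recognise, followed ITGA3. It had 188, 165 and 164 CPM in shControl, 329, 307 and 334 CPM in shBMAL1, and 98.3, 102 and 115 CPM in shARNT. The 3 groups were apart, and on the log2 scale LAMA3 changed by 0.91 (SE 0.058, adjusted p = 5.55e-11) in shBMAL1 and -0.71 (SE 0.0591, adjusted p = 7.89e-10) in shARNT. LAMA2, the alpha chain of muscle and Schwann cell basement membranes, moved the same ways at a low level, with means of 5.00 CPM in shControl, 7.09 CPM in shBMAL1 (0.51, adjusted p = 0.00995) and 2.98 CPM in shARNT (-0.75, adjusted p = 0.000485).

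LAMA1, an alpha chain of early embryonic and tubular basement membranes, was the single laminin chain that rose in shARNT. It had 82.6, 79.5 and 82.7 CPM in shControl, 83.6, 83.1 and 97.1 CPM in shBMAL1, and 93.4, 97.3 and 109 CPM in shARNT. The rise of 0.29 on the log2 scale was modest (SE 0.0619, adjusted p = 0.000243). In shBMAL1 the difference of 0.11 was not called (adjusted p = 0.149), although it was with library size alone, with no filter on low counts, with the replicate number as a block and without shBMAL1 replicate 1 or 2. LAMA4, known from blood vessel basement membranes, fell in both depletions, from a mean of 146 CPM to 113 CPM in shBMAL1 (-0.36, adjusted p = 9.73e-07) and 103 CPM in shARNT (-0.50, adjusted p = 3.45e-09). Of 6 endothelial markers, PECAM1 was at 0.0303 CPM and CDH5 at 0 in shControl. TEK, a receptor of endothelial cells and the single one to pass the filter, was at 2.85 CPM in shControl, 3.21 CPM in shBMAL1 and 0.581 CPM in shARNT, the last a called fall (-2.29, adjusted p = 8.97e-09), and its part in the fall of LAMA4 was not tested.

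Each of the 4 laminin beta chains fell at least 2-fold in shARNT. LAMB1 (chromosome 7, 107564244 to 107643658) had 1179.7, 1127 and 1187 CPM in shControl, 910.0, 908 and 922 CPM in shBMAL1, and 357, 371 and 388 CPM in shARNT. LAMB1 was lower in every library of both depletions than in any control, by 1.65 on the log2 scale in shARNT (SE 0.0374, adjusted p = 5.84e-19) and by 0.35 in shBMAL1 (SE 0.0364, adjusted p = 7.36e-08).

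LAMB2, the beta chain of mature kidney basement membranes, had 952, 965 and 952 CPM in shControl, 834, 859 and 851 CPM in shBMAL1, and 409, 405 and 415 CPM in shARNT. It fell by 1.22 in shARNT (SE 0.0325, adjusted p = 6.8e-18) and, less, by 0.17 in shBMAL1 (adjusted p = 9.93e-05). LAMB3, the beta chain of laminin 332, had 143, 149 and 140.3 CPM in shControl, 136, 148 and 151 CPM in shBMAL1, and 41.0, 44.3 and 45.6 CPM in shARNT. It fell by 1.72 in shARNT (adjusted p = 5.06e-17), while shBMAL1 overlapped control (0.01, 95% interval -0.09 to 0.11), and that sign turned without shControl replicate 3, shBMAL1 replicate 2 or shBMAL1 replicate 3. LAMB4, a chain with few known roles, was at 1.60 CPM in shControl, 1.95 CPM in shBMAL1 and 0.219 CPM in shARNT, a fall of 2.85 (adjusted p = 1.15e-07) that was the largest of any tested chain in shARNT. It had 8, 13 and 5 counts in shARNT. Its 95% interval, from -3.54 to -2.17, held the values of ITGAM and LAMC3, so the ranking is uncertain.

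Gamma chains close the trimer, and nearly all of their level was LAMC1, the gamma chain of most laminins. LAMC1 had 581, 528 and 530.3 CPM in shControl, 532, 511 and 568 CPM in shBMAL1, and 407, 419 and 445 CPM in shARNT. As a log2 value it fell by 0.37 in shARNT (SE 0.0465, adjusted p = 4.62e-07), less than any laminin beta chain, and overlapped control in shBMAL1 (-0.02, 95% interval -0.12 to 0.07, and 0.02 with library size alone). LAMC3 averaged 10.7 CPM in shControl, 9.20 CPM in shBMAL1 and 1.92 CPM in shARNT, a fall of 2.48 in shARNT (adjusted p = 1.76e-13). Its call in shBMAL1 (-0.22, adjusted p = 0.0757) was lost under 9 of 18 alternatives.

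Chains of 1 trimer therefore differed. For laminin 332, LAMA3 rose in shBMAL1 while LAMB3 was not called. For laminins 511 and 521, LAMA5 fell by 0.83 in shARNT, LAMB1 and LAMB2 by 1.65 and 1.22, and LAMC1 by 0.37. In shBMAL1 the same chains had log2 fold changes of 0.01, -0.35, -0.17 and -0.02.

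The makeup of each class was compared as shares of its summed level per kilobase. ITGB3 took 8.25% ± 0.173 (SD, n = 3) of the beta chain level in shControl, 18.6% ± 0.581 in shBMAL1 and 31.5% ± 0.633 in shARNT. ITGB5 went the other way, from 41.6% to 30.1% and 22.6%, while ITGB1 stayed between 44.6% and 50.2%. With the longest transcript as the length, the ITGB3 share was 4.79%, 10.8% and 19.4%, so the order of the groups did not change. The spread between libraries was small beside these differences, which are given without a test.

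Among integrin alpha chains, ITGA3 held 47.4% in shControl, 54.0% in shBMAL1 and 55.4% in shARNT. The ITGA5 share was 19.3% in shControl, 25.1% in shBMAL1 and 10.1% in shARNT, and that of ITGAV 18.2%, 9.46% and 19.6%. Among laminin alpha chains, LAMA5 held 71.0%, 65.8% and 64.4%, LAMA3 11.7%, 20.3% and 11.6%, and LAMA1 5.08%, 5.04% and 10.0%. LAMC1 made up 98.1% of the gamma chain level in shControl.

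**Figure D4:**
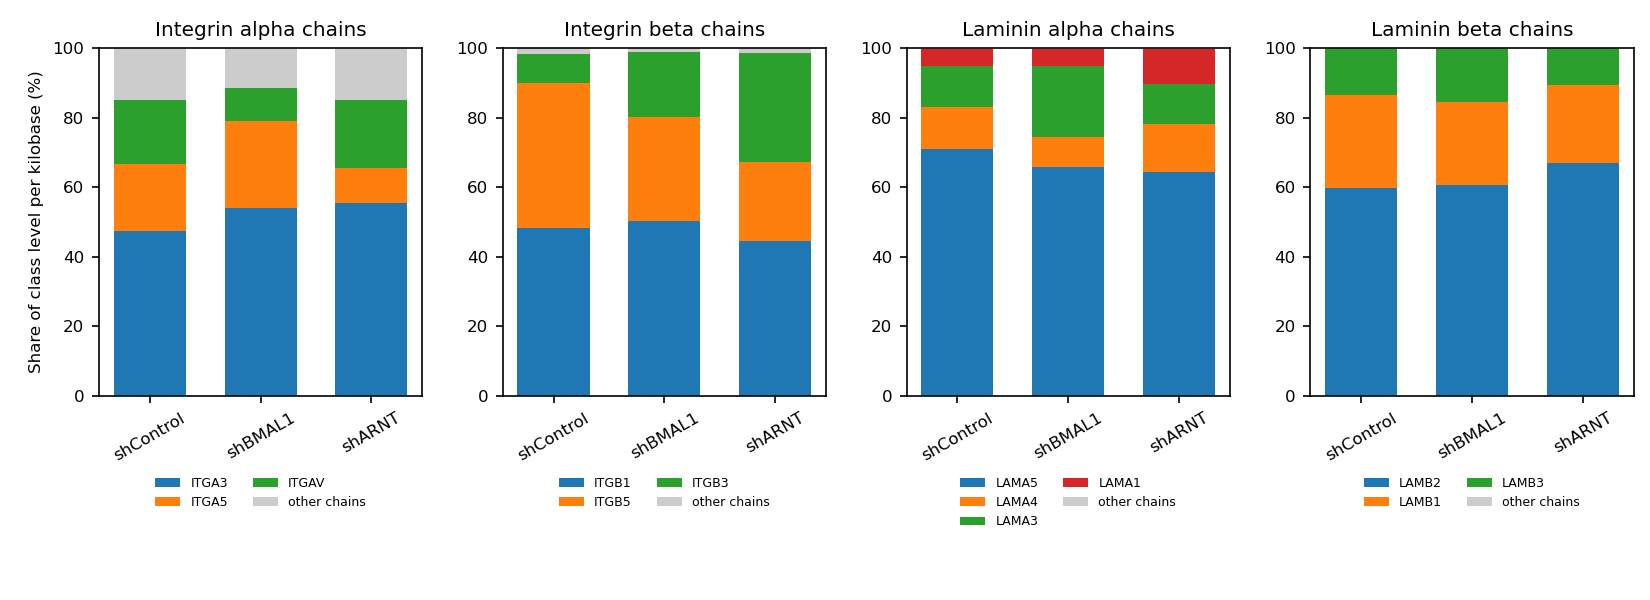
Mean share of each chain in the summed level per kilobase of its class, in percent, over 3 libraries a group, with chains under 5% in every group pooled as other chains. In the beta chain panel ITGB3 (green) grows from 8.25% in shControl to 18.6% in shBMAL1 and 31.5% in shARNT.

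The direct contrast of shARNT with shBMAL1, which uses no control level, called 30 of the 35 chains, 26 lower and 4 higher in shARNT, against 81.2% of all genes called, 40.1% higher and 41.1% lower. Integrin chains had 16 lower, 3 higher and 4 not called, with a median log2 fold change of -0.98. Laminin chains had 10 lower, 1 higher and 1 not called, with a median of -1.15. At least 2-fold lower were 10 integrin and 7 laminin chains, and 18.7% of all genes were. Libraries did not overlap for 25 chains that were lower and 3 that were higher in shARNT, beside 79.6% of all genes. The chains called higher in shARNT were ITGB7 (1.96), ITGA7 (0.27), LAMA1 (0.18) and ITGAE (0.18). For LAMA1 the libraries of the depletions overlapped. Of these chains, only ITGB7 kept its call at a minimum fold change of 1.5. The ITGAE call was lost without shBMAL1 replicate 1 or shARNT replicate 2, and that of ITGA7 under 9 of 18 alternatives.

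Read by chain, 8 members fell in shARNT and rose in shBMAL1, each against control. These were ITGA2, ITGA3, ITGA4, ITGA5, ITGAX, ITGB1, LAMA2 and LAMA3, and 10.4% of all genes had this pattern. A further 9 were lower in both (ITGA1, ITGA10, ITGAM, ITGB4, ITGB6, LAMA4, LAMB1, LAMB2 and LAMC3, background 18.0%), and 4 were higher in both (ITGA11, ITGAE, ITGB3 and ITGB8, background 17%). ITGB7 was the single chain called higher in shARNT and lower in shBMAL1 (background 8.98%), although its shBMAL1 libraries overlapped control. Another 7 were lower in shARNT and not called in shBMAL1, which were ITGA6, ITGAV, ITGB5, LAMA5, LAMB3, LAMB4 and LAMC1 (background 12.9%). Of these, LAMB4 had a wide shBMAL1 interval, from -0.23 to 0.80 on the log2 scale.

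Genes that work with these chains were counted from lists. The counts stand beside the 81.8% of all genes called in shARNT (40.5% higher, 41.3% lower) and the 63.3% called in shBMAL1 (31.9% higher, 31.5% lower), and no difference from that background was tested. Focal adhesion proteins link integrin tails to actin, and of 22 tested 6 rose and 14 fell in shARNT, and 7 rose and 13 fell in shBMAL1. TNS1 (tensin 1) fell by 3.24 in shARNT and by 1.69 in shBMAL1, whereas TNS3 (tensin 3) rose by 1.68 in shARNT (adjusted p = 5.79e-17). TLN2 (talin 2) fell by 1.04 in shBMAL1 (adjusted p = 1.95e-07). Of 4 hemidesmosome genes, 0 rose and 2 fell in shARNT, and 2 rose and 1 fell in shBMAL1. CD151, the tetraspanin that holds α3β1 and α6β4, fell by 2.01 in shARNT (adjusted p = 1.46e-19) and by 0.17 in shBMAL1, and PLEC (plectin) fell by 1.16 in shARNT (adjusted p = 4.82e-14). DST (dystonin) rose by 0.29 in shBMAL1 (adjusted p = 0.0282), although its libraries overlapped those of control.

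Of 8 basement membrane partners, 1 rose and 5 fell in shARNT, and 5 rose and 2 fell in shBMAL1. NID1 (nidogen 1), which binds the laminin gamma 1 chain, fell by 2.14 in shARNT (adjusted p = 9.28e-21), NID2 rose by 1.73 in shBMAL1 (adjusted p = 2.16e-14), and NTN4 (netrin 4) rose by 1.28 in shARNT and 1.93 in shBMAL1. Other laminin receptors had 1 riser and 6 fallers of 7 in shARNT, and 3 and 4 in shBMAL1. SDC1 (syndecan 1) fell by 1.83 and BCAM, a receptor of the LAMA5 product, by 1.66 in shARNT. In shBMAL1 BCAM fell by 0.60 (adjusted p = 9.53e-11) and SDC2 (syndecan 2) by 0.94 (adjusted p = 2.03e-05).

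Integrin ligands had 6 higher and 9 lower of 16 in shARNT, and 8 higher and 7 lower in shBMAL1. VTN (vitronectin), the ligand of αVβ3 and αVβ5, fell by 4.49 in shARNT (adjusted p = 8.39e-20), and TGFB1, whose latent form αV integrins bind, by 3.68. TNC (tenascin C) rose by 2.19 in shBMAL1 (adjusted p = 1.65e-15), and THBS1 (thrombospondin 1) fell by 2.06 (adjusted p = 8.34e-17). Of 13 integrin regulators, 1 rose and 9 fell in shARNT, and 6 rose and 5 fell in shBMAL1. RAP1B, a small GTPase that promotes integrin activation, fell by 1.49 in shARNT (adjusted p = 1.75e-09) and rose by 0.78 in shBMAL1. The tetraspanin CD82 rose by 2.08 in shBMAL1 (adjusted p = 1.64e-17), and CD81 fell by 1.33 in shARNT.

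Markers of other cell types were low, with exceptions among the fibroblast and mesangial genes. Of 7 such genes, 3 were tested, and the summed level in CPM was 286.9 to 303 over the shControl libraries, 89.7 to 90.6 over shBMAL1 and 58.6 to 72.1 over shARNT. Nearly all of it was COL1A1 (236.6 CPM in shControl), which fell by 2.38 in shARNT and 2.73 in shBMAL1, and ACTA2, which fell by 1.55 in shARNT. The defining markers PDGFRA (0.231 CPM in shControl) and LUM (0 in all libraries) were near absent. PDGFRB, a receptor of pericytes and mesangial cells, was tested and averaged 2.20 CPM in controls. It fell in shBMAL1 (0.439 CPM, -2.32, adjusted p = 6.21e-07) and in shARNT (0.168 CPM, -3.68, adjusted p = 1.57e-09). Of 6 endothelial and 4 platelet markers, 1 each was tested, with summed levels of 0.506 to 3.91 CPM and 0.813 to 2.12 CPM. The part of other cells in the chain levels was not tested.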

How the data were processed

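RNA of A498 cells was sequenced as stranded, paired-end mRNA libraries on a BGISEQ-500. The study's methods name alignment to GRCh37 with SeqMan NGen 17 and counts exported with ArrayStar 17, whereas the submitters' processing notes name STAR, DESeq2 and hg38, and the sources do not settle which made the table. Use of strand, the annotation and the treatment of reads with several alignments are not given in the sources used here. The deposited values are expected counts (total reads per gene, not normalized by the authors), of which 720 to 787 per library are fractions, LAMA1 and LAMA5 among the members with fractions. They were rounded to whole numbers, and 0.05, which stands for no reads, was set to 0. In the table, 43 names held by several rows were summed, and 28 rows with a date for a name were kept apart.

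Tests used the edgeR 4.0.16 quasi-likelihood fit in R 4.3.3 over all 9 libraries with TMM scaling, group as the only factor and filterByExpr, which left 15551 genes. The call threshold was an adjusted p of 0.1 (Benjamini-Hochberg). Alternatives were DESeq2 1.42.0, other scalings, no filter, halved counts, a replicate block, a minimum fold change of 1.5, a threshold of 0.05 and each library left out. Intervals are 95% intervals of the fit. Exon lengths and positions come from GENCODE release 44 lifted to GRCh37, and promoters from RefSeq on GRCh38.p14, and a difference from the authors' annotation would change levels per kilobase but not the tests. The fit was tested on simulated data in which far fewer genes changed than were called here, so scaling under widespread change was not tested. The values of 1 member and 1 list gene are not reported here, and summed levels and counts include them. Members and lists were chosen with earlier results of these data known. Any member could be named, and from each list the 2 called genes with the largest change in each contrast with shControl, at a mean log2 CPM of at least 2, together with the defining markers of cell types.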

Additional observations from a re-analysis of the deposited data

Results flagged for a closer look

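For 30 chains the effects of the 2 depletions, measured against the same control libraries, differed when shARNT was tested directly against shBMAL1 (edgeR quasi-likelihood test, adjusted p under 0.1). This contrast called 81.2% of all genes, so differing is the usual case among the genes tested. The values are log2 fold changes of shARNT relative to shBMAL1. Among integrin alpha chains they were -0.92 for ITGA1, -2.57 for ITGA2, -2.0 for ITGA3, -1.79 for ITGA4, -3.34 for ITGA5 and -1.67 for ITGA6. The remaining alpha chains stood at 0.27 for ITGA7 (not called under 9 of 18 alternatives), 0.18 for ITGAE (not called without shBMAL1 replicate 1 or shARNT replicate 2), -2.20 for ITGAM, -0.98 for ITGAV and -2.48 for ITGAX. Beta chains had -1.24 for ITGB1, -0.70 for ITGB2 (not called with library size alone, or without shBMAL1 replicate 3, shARNT replicate 1 or shARNT replicate 3), -0.31 for ITGB3, -0.98 for ITGB4, -1.49 for ITGB5, -1.33 for ITGB6, 1.96 for ITGB7 and -0.83 for ITGB8.

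Laminin alpha chains had 0.18 for LAMA1, -1.25 for LAMA2, -1.62 for LAMA3, -0.13 for LAMA4 (0.0553 with library size alone) and -0.84 for LAMA5. Laminin beta chains had -1.30 for LAMB1, -1.05 for LAMB2, -1.73 for LAMB3 and -3.13 for LAMB4, and gamma chains -0.34 for LAMC1 and -2.26 for LAMC3. ITGA2, ITGA3, ITGA4, ITGA5, ITGAX, ITGB1, LAMA2 and LAMA3, and in the other order ITGB7, were on opposite sides of control in the depletions. For ITGB7 the shBMAL1 libraries overlapped control, and that call was lost without shControl replicate 3 or shBMAL1 replicate 3. By contrast, ITGB3, ITGB8 and ITGAE were above control in both and differed in the size of the rise. A minimum fold change of 1.5 would end the direct calls of ITGA7, ITGAE, ITGB2, ITGB3, LAMA1, LAMA4 and LAMC1.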

How the results depend on the processing

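Under 18 alternatives, 56 of the 83 called pairs of a chain and a contrast kept their call and direction throughout. Of 1833 values of the chains reported, 1732 did not change call or direction, 70 lost and 13 gained a call, and 18 turned direction. For each contrast these values include fits that left out a library of the group outside it. Such fits dropped no library that was compared. A minimum fold change of 1.5 left 3 integrin and 0 laminin chains higher in shARNT than in control. In shBMAL1 against control it left 2 integrin chains lower, 1 laminin chain higher and 0 lower, and in shARNT against shBMAL1 1 integrin and 0 laminin chains higher. The fewest stable calls were among the 7 integrin chains lower in shBMAL1, which were 4 with library size alone, 4 at an adjusted p under 0.05, and 3 to 7 when 1 library was left out (3 without shBMAL1 replicate 3, 4 without shControl replicate 1). Integrin chains higher in shARNT than in shBMAL1 were 1 to 3 when 1 library was left out, with 1 without shARNT replicate 2.

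Direction turned mainly where no call was made, and the cause was not tested. With library size alone, ITGA2B was 0.18, ITGA7 0.18 and ITGB2 0.0638 in shARNT against control, ITGAV 0.0381 and LAMC1 0.0215 in shBMAL1 against control, and LAMA4, called otherwise, 0.0553 (adjusted p = 0.274, edgeR) in shARNT against shBMAL1. With 1 library left out, ITGA2B ran from -0.19 to 0.0894 and ITGB2 from -0.60 to 0.0329 in shARNT. In shBMAL1 the ranges were -0.0281 to 0.0157 for ITGAV, -0.0503 to 0.0702 for LAMA5, -0.0169 to 0.0575 for LAMB3 and -0.0659 to 0.021 for LAMC1. ITGAD, which was under 1 CPM, had wide 95% intervals against control, from -1.80 to 0.12 in shARNT and from -1.42 to 0.47 in shBMAL1. Neither interval excludes a 2-fold fall.

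No pairing by replicate number was found, as correlations of same-numbered libraries ran from -0.17 to 0.17, and of differently numbered ones from -0.15 to 0.22. With the replicate block 6 integrin chains were lower and 3 laminin chains higher in shBMAL1 than in control, in place of 7 and 2, because ITGAM lost and LAMA1 gained its call, and no other call changed.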
